A study of Mus musculus with 2 samples.

Results

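The cytochrome P450 genes of families 1 to 4 held 193 of the 69549 distinct open chromatin regions measured in mouse liver. A region was counted for a gene when that gene's transcription start site (TSS) was the closest one and its symbol began with *Cyp1*, *Cyp2*, *Cyp3* or *Cyp4* followed by a subfamily letter. The rule uses symbols and positions only, but the families were chosen with earlier results of these data known. The 193 regions belonged to 68 genes. Of them, 51 lay with their position within 1000 bp of the start site and are called promoter regions (44 genes), and 142 lay further away and are called distal regions (58 genes). RefSeq lists 80 protein-coding genes in these families, of which 67 had a region. The 13 without one were *Cyp2ab1*, *Cyp2b23*, *Cyp2c40*, *Cyp2c65*, *Cyp2c69*, *Cyp2d12*, *Cyp2j12*, *Cyp2j13*, *Cyp2s1*, *Cyp4a30b*, *Cyp4f18*, *Cyp4f40* and *Cyp4x1*. The remaining gene, *Cyp2d37-ps*, is not protein-coding in RefSeq.

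The regions came from ATAC-seq, in which the Tn5 transposase inserts adaptors into accessible DNA, on nuclei from whole liver. All mice were C57BL/6, aged 8 weeks and fed chow, and both groups carried *Mettl3* alleles with loxP sites around exons 2 and 3. *Mettl3* encodes the catalytic subunit of the enzyme that writes m6A onto RNA. *Mettl3*-HKO mice (*Mettl3* flox/flox *Alb-Cre*+/-) also carried a Cre transgene driven by the albumin promoter, which is active in hepatocytes, whereas the *Mettl3* flox/flox mice carried no Cre. Liver cells without Cre activity keep *Mettl3* in both groups, and which cells these were was not tested here. Livers of 4 mice were pooled into 1 library per group, so there was no replicate error, no test across mice was possible, and every comparison is one of 2 libraries.

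Cytochromes P450 are haem enzymes of the endoplasmic reticulum that use electrons from P450 oxidoreductase to oxidise drugs, steroids, fatty acids and other lipids, and the hepatocyte is their main site. Families 1 to 3 hold most drug-oxidising and steroid-oxidising enzymes, and family 4 hydroxylates fatty acids at the omega end. Most of the genes sit in tandem clusters of close relatives. Many are switched on by ligand-sensing factors: AhR acts on *Cyp1* genes, CAR and PXR act on *Cyp2b*, *Cyp2c* and *Cyp3a* genes, and PPARα acts on *Cyp4a* genes.

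Promoter sequences are shown for 5 genes that carry the main patterns described here. *Cyp2c29* and *Cyp1a2* had promoter regions among the lowest in *Mettl3*-HKO livers, *Cyp3a11* and *Cyp2a5* lie in blocks of regions that were higher, and *Cyp2j6* stood highest, by percentile, among promoters of like signal. Each sequence is RefSeq's 300 bases on GRCm38.p6, from 250 bases before the start to 50 after, 5′ to 3′ on the strand of the gene. Capitals mark exact matches, on either strand, to TATAAA (the letters of a TATA box, at any position), AGGTCA (the core hexamer bound by nuclear receptors), GCGTG (the core bound by AhR), GTTAAT (part of the HNF1 site) or TGTTTA (part of the forkhead site). Matches of different motifs were allowed to overlap. The TATAAA of *Cyp3a11* stands near the upstream end of the window, away from the start, whereas those of *Cyp2c29*, *Cyp1a2* and *Cyp2a5* stand shortly before it. *Cyp2c29* lies on chr19:39286835-39287134 (+), *Cyp1a2* on chr9:57683606-57683905 (−), *Cyp3a11* on chr5:145879805-145880104 (−), *Cyp2a5* on chr7:26835089-26835388 (+) and *Cyp2j6* on chr4:96553602-96553901 (−).
Cyp2c29: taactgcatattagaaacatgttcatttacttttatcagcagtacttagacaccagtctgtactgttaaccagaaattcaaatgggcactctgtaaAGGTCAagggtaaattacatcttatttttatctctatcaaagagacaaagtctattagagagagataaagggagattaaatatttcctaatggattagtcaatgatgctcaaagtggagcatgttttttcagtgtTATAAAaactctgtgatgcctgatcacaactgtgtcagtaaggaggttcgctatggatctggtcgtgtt
Cyp1a2: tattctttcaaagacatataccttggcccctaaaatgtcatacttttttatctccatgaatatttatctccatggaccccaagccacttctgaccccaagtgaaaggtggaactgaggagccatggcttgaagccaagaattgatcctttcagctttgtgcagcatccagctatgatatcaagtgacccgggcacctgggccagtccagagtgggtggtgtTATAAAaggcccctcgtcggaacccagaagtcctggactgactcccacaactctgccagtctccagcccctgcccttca
Cyp3a11: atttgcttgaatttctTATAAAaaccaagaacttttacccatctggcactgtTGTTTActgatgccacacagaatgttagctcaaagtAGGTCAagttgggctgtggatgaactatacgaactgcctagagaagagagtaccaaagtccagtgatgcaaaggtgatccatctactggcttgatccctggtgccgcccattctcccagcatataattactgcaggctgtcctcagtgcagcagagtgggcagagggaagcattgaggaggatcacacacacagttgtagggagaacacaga
Cyp2a5: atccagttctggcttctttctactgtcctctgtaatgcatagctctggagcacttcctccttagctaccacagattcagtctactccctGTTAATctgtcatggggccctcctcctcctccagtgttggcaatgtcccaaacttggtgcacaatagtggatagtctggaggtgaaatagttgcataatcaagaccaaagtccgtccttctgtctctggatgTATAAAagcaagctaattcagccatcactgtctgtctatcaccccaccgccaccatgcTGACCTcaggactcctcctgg
Cyp2j6: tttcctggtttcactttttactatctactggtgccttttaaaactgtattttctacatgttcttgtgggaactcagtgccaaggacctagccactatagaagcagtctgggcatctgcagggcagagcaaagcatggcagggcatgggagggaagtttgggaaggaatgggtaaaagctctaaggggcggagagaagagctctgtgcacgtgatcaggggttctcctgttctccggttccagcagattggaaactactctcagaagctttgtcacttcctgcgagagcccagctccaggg

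Of the 68 genes, 55 had a promoter sequence in the RefSeq table. TATAAA occurred in 25 of these 55 (45.5%), against 13.6% of all 32851 promoters. AGGTCA occurred in 18 (32.7%, against 16.3% of all), TGTTTA in 13 (23.6%, against 13.4%), GTTAAT in 5 (9.09%, against 7.1%) and GCGTG in 11 (20%, against 32.4%). *Cyp2j6* held none of the 5 motifs, and *Cyp1a2* held TATAAA alone. The P450 promoters were poor in CpG dinucleotides: 30 of the 32 promoter regions with a RefSeq sequence had an observed to expected CpG ratio under 0.4, against 1067 of all 8956 such promoter regions, and the exceptions were *Cyp2r1* and *Cyp4v3*. Such matches are descriptions of the letters in this window.

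Values are read counts in each library, given as *Mettl3* flox/flox first and *Mettl3*-HKO second, and the log2 ratio of the counts with 1 read added, each divided by its library total (52826202 and 58038305 reads). Brackets give the 95% Clopper-Pearson interval of that ratio, which covers only the counting error of independent reads. It leaves out differences between the pooled mice, and it is too narrow if the counts include duplicate reads, which is not stated. Over all 69549 regions the median of this ratio was −0.38 (promoter regions −0.56, distal regions −0.27), so a P450 region near these values was a typical one. Scaling to the reads in regions moves the zero point to −0.51, and centring on the strongest promoter regions moves it to −0.63, so a ratio between these values and 0 changes sign with the scaling, whereas differences between regions do not. Each P450 region was therefore also set beside the median of the 1000 regions of its own class nearest to it in mean signal, called the signal median below. A smaller share of the *Mettl3*-HKO reads fell in regions (22.3%) than of the *Mettl3* flox/flox reads (31.7%).

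The *Mettl3* start site itself had 566 and 392 reads, a log2 ratio of −0.66 beside a signal median of −0.64, and none of its 3 regions was shown here to lie in the floxed exons, so they do not check the deletion. Hepatocyte markers had promoter regions for 8 of 8 genes (9 regions) with a median log2 ratio of −0.76, from −1.32 to 0.02, and 4273 reads in all in *Mettl3* flox/flox against 3118 in *Mettl3*-HKO. Endothelial markers had promoter regions for 7 of 8 genes, with a median of 1.60, from 0.14 to 1.78, and 153 against 400 reads in all. For macrophage markers only *C1qa* of 8 genes had one (8 and 40 reads), stellate cell markers had 3 regions (a median of 0.08, with 690 and 132 reads at *Reln*, 37 and 43 at *Col1a1* and 9 and 34 at *Hand2*), cholangiocyte markers had 6 (910 and 726 reads) and lymphocyte markers had none. Distal regions of hepatocyte markers (61) had a median of −0.51, endothelial (24) 0.82, stellate (2) 0.72 and cholangiocyte (17) −0.25. The 7 distal macrophage marker regions had 750 and 347 reads and a median of 0.10. Of these 7, 4 lay above 0 and 3 below, down to −5.97. The 4 distal lymphocyte marker regions had 842 and 446 reads and a median of −0.60, with 1 above 0. The part of cell composition in the P450 results was not tested. In nuclei of whole liver, fewer cells of a type with an open region and less opening per cell cannot be told apart. Y chromosome reads made up 2.72% (2.66 to 2.77, exact binomial interval) of the X and Y region reads in *Mettl3* flox/flox and 3.01% (2.95 to 3.08) in *Mettl3*-HKO.

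On the deposited scale, 40 of the 51 promoter regions of P450 genes (78.4%) had a log2 ratio below 0, against 83.9% of all promoter regions, so the sign alone did not set them apart. They lay more often below promoters of like signal than above them, and distal regions were split between blocks that were lower and blocks that were higher. The 51 promoter regions had 12257 reads in *Mettl3* flox/flox and 8117 in *Mettl3*-HKO, and a median log2 ratio of −0.77, from −1.96 to 1.64. The median of their signal medians was −0.47. Of the 51, 34 (66.7%) lay below their signal median, where 49.5% of all promoter regions did. At least 2-fold lower in *Mettl3*-HKO were 15 (29.4%, against 16.3% of all promoter regions), and at least 2-fold higher were 2 (3.92%, against 4.07%). With the median over all regions set to 0, these counts became 4 lower (7.84%, against 5%) and 6 higher (11.8%, against 6.9%), so on the higher side the comparison with the background depended on the scaling. Set against the signal median, 5 promoter regions were at least 2-fold below it (9.8%, against 4.84%) and 2 at least 2-fold above (3.92%, against 5.24%).

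The 142 distal regions had 20737 and 15579 reads and a median log2 ratio of −0.48, from −4.31 to 2.90. Here 37 were at least 2-fold lower (26.1%, against 18.8% of all distal regions) and 19 at least 2-fold higher (13.4%, against 15.6%), and after the same centring 22 lower (15.5%, against 8.65%) and 28 higher (19.7%, against 23.5%). At least 2-fold below the signal median were 23 (16.2%, against 13.5%) and at least 2-fold above it were 22 (15.5%, against 13.1%), so the distal regions as a whole stood close to the background on both sides. Below the signal median were 79 of the 142 (55.6%, against 49.7%). Over both classes, 52 regions were at least 2-fold lower (18.3% of all regions were) and 21 higher (13.2% of all), but with the libraries scaled to the reads in regions these counts were 22 and 36, against 5.75% and 22.9% of all regions. The authors called a peak in both libraries for 120 of the 193 regions (61.7% of all regions had both), in *Mettl3* flox/flox only for 32 (16.8% of all) and in *Mettl3*-HKO only for 41 (21.5% of all). P450 promoter regions were narrow, with a median width of 436 bp against 764 bp for all promoter regions, and had lower counts (median 153 and 121 reads, against 370 and 265). Among promoter regions with a CpG ratio under 0.4, 10 of the 30 P450 regions (33.3%) were at least 2-fold lower, against 18.3% of all 1067 such regions, and their medians were −0.77 and −0.48.

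**Figure D1:**
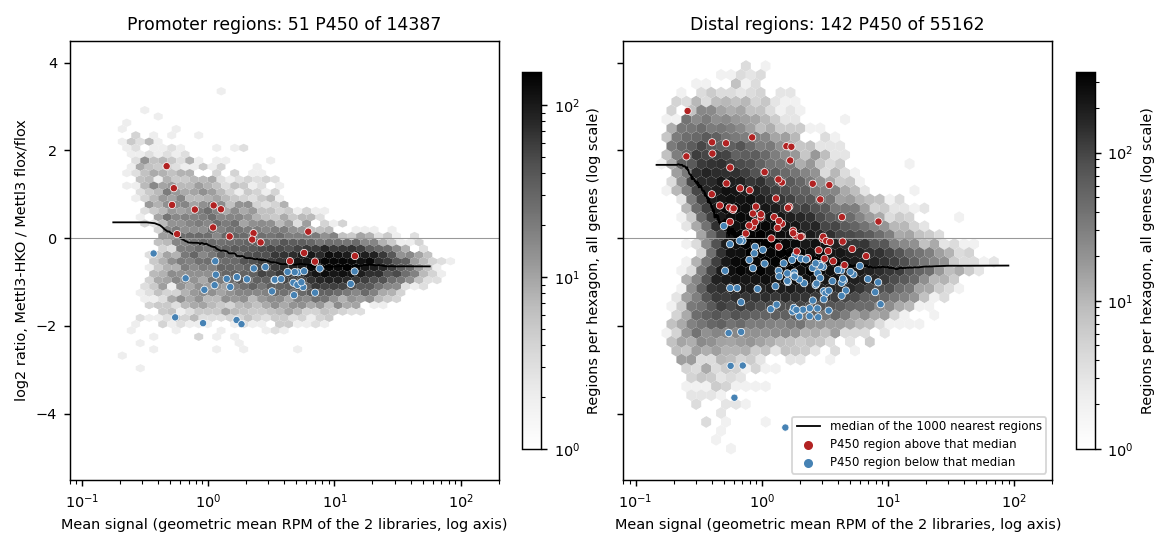
The log2 ratio of *Mettl3*-HKO to *Mettl3* flox/flox (y axis) against the geometric mean of the RPM (reads, with 1 added, scaled by the library total) of both libraries (x axis, log scale), for promoter regions (left) and distal regions (right). Grey hexagons count all regions, the black line is the median of the 1000 regions nearest in signal, and points are P450 regions, red above that line and blue below it: 34 of the 51 promoter points and 79 of the 142 distal points lie below it, and the lowest distal point, at −4.31, is a *Cyp2c29* region.

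The *Cyp1* genes, the classic AhR targets, were lower at all 3 of their promoter regions. *Cyp1a2*, the caffeine-oxidising enzyme of pericentral hepatocytes, had 168 and 50 reads at its promoter (+23 bp from the start), a log2 ratio of −1.86 [−2.37 to −1.42] beside a signal median of −0.39, and the authors called a peak there in *Mettl3* flox/flox only. *Cyp1a1*, which oxidises polycyclic aromatic hydrocarbons, had 354 and 192 reads (−1.01) at its promoter, the strongest region of the subfamily. *Cyp1b1*, a P450 found mostly outside the hepatocyte, had 115 and 58 reads at its promoter (−1.11) but 28 and 67 reads at +27607 bp (1.09). All 3 promoter regions were therefore at least 2-fold lower (16.3% of all promoter regions were). The *Cyp1a* pair shares 1 cluster on chromosome 9 with 7 regions, all below 0 (64.8% of all regions were). Within it, 5 neighbouring regions in a row lay below their signal medians, with 1028 and 466 reads in all, and they include a region 1702 bp upstream of *Cyp1a1* (164 and 56 reads, −1.67) and one 8688 bp downstream of its start (218 and 89 reads, −1.42). The exception to the row was at +13875 bp from *Cyp1a2*, with 160 and 174 reads (−0.02, signal median −0.49).

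The *Cyp2c* genes, epoxygenases and steroid hydroxylases of which several respond to CAR and PXR, held the lowest P450 regions. Of their 35 regions, 31 lay below 0 (64.8% of all regions did), 13 were at least 2-fold lower (18.3% of all) and 1 was at least 2-fold higher (13.2% of all). *Cyp2c29* stood out among them: 7 of its 10 regions were at least 2-fold lower in *Mettl3*-HKO (18.3% of all regions were), and the lowest ratios were at distal regions. At +45421 bp there were 361 reads in *Mettl3* flox/flox and 19 in *Mettl3*-HKO, a log2 ratio of −4.31 [−5.13 to −3.72] beside a signal median of −0.35. None of the 1000 distal regions nearest in signal had a lower ratio.

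Other regions of *Cyp2c29* ran the same way. At +48809 bp there were 112 and 9 reads (−3.63 [−4.94 to −2.80]), at +30784 bp 101 and 14 (−2.90 [−3.91 to −2.17]), and at −4102 bp 81 and 11 (−2.91). Nearer the start, the region at −1250 bp had 108 and 38 reads (−1.62) and the promoter region 190 and 53 (−1.96 [−2.45 to −1.53]), and the latter covers 255 of the 300 promoter bases printed for *Cyp2c29* above. The promoter kept a called peak in both libraries, whereas the authors called peaks in *Mettl3* flox/flox only at the distal regions just named. The outermost regions of the locus had 58 and 53 reads at −27043 bp (−0.26 [−0.83 to 0.30]) and 37 and 39 at +60164 bp (−0.06 [−0.75 to 0.63]), with 67 and 49 at −26491 bp (−0.58 [−1.15 to −0.03]). The region at +60164 bp overlaps the RefSeq promoter of the neighbouring gene *Cyp2c39*. The only other region inside the span of the *Cyp2c* cluster was closest to a gene without a symbol, and it had 294 and 25 reads (−3.64). Whether that gene belongs to the families was not tested.

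Along chromosome 19, 14 neighbouring P450 regions from *Cyp2c55* to *Cyp2c38* lay below their signal medians, with 1884 reads in *Mettl3* flox/flox and 716 in *Mettl3*-HKO. A further 8 from *Cyp2c67* to *Cyp2c54* did so with 662 and 412 reads. These rows, like those given for other clusters, were picked out after their values were seen. Each is a run of at least 5 regions on the same side of the signal median, so its read totals lean that way by construction. Among the promoters in and beside them, *Cyp2c54* had 93 and 26 reads (−1.94 [−2.66 to −1.33]), *Cyp2c67* 73 and 35 (−1.18), *Cyp2c50* 85 and 44 (−1.07), *Cyp2c68* 80 and 49 (−0.83) and *Cyp2c37* 71 and 54 (−0.52 [−1.07 to 0.00]). The promoter of *Cyp2c44*, an arachidonic acid epoxygenase that RefSeq lists as *Cyp2c23*, had 53 and 16 reads (−1.80). *Cyp2c55* and *Cyp2c66* had distal regions only, the strongest of the subfamily being at −8348 bp from *Cyp2c55* with 329 and 185 reads (−0.96).

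Not every *Cyp2c* gene was lower. The promoter of *Cyp2c39* had 141 and 145 reads (−0.10) and that of *Cyp2c70* 115 and 137 (0.11 [−0.25 to 0.49]), and both lay above their signal medians of −0.49 and −0.47. *Cyp2c70*, which makes muricholic acids in mouse liver, also had 49 and 102 reads at +18765 bp (0.91) and 12 and 63 at +33604 bp (2.16). *Cyp2c38* was too thinly covered to read, with 21 and 18 reads at −149 bp and 20 and 38 at −988 bp, and both intervals included 0.

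**Figure D2:**
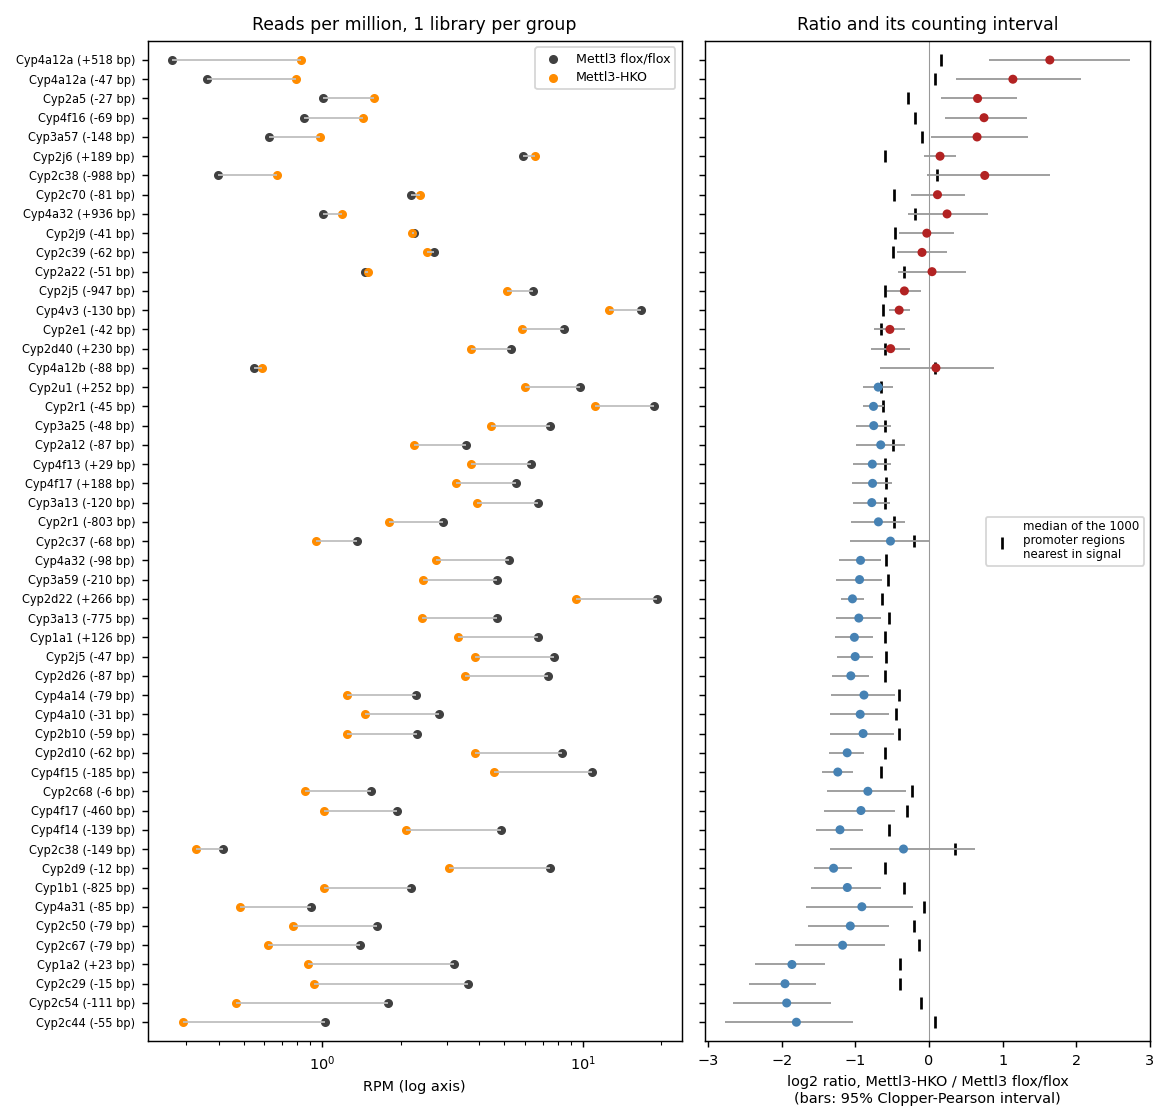
The 51 P450 promoter regions, each named by gene and distance from the start site and ordered by the log2 ratio minus the signal median. Left, RPM on a log axis in the *Mettl3* flox/flox (grey) and *Mettl3*-HKO (orange) library. Right, the log2 ratio with its 95% Clopper-Pearson interval (bars) and the median of the 1000 promoter regions nearest in signal (black ticks): *Cyp2c44*, *Cyp2c54*, *Cyp2c29* and *Cyp1a2* stand at the bottom, with log2 ratios from −1.96 to −1.80.

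The *Cyp2d* genes, relatives of the human debrisoquine hydroxylase, were lower at most sites. Of 23 regions, 21 lay below 0 (64.8% of all regions did) and 10 were at least 2-fold lower (18.3% of all). *Cyp2d22* had 1018 and 543 reads at its promoter (−1.04 [−1.20 to −0.89]), the strongest region of the subfamily, *Cyp2d9* had 395 and 176 (−1.30), *Cyp2d10* 438 and 222 (−1.11) and *Cyp2d26* 387 and 203 (−1.06). The promoter of *Cyp2d40*, with 280 and 214 reads (−0.52), was close to its signal median of −0.60. For *Cyp2d9*, a male-predominant steroid hydroxylase, the 4 distal regions ran from 59 and 23 reads at −17659 bp (−1.46) to 108 and 84 at −8508 bp (−0.49). At the pseudogene *Cyp2d37-ps*, 5 of 6 distal regions lay below their signal medians (49.7% of all distal regions did), the largest of them with 639 and 299 reads (−1.23), and the one above it had 36 and 59 reads.

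The *Cyp2a* genes, coumarin and steroid hydroxylases, went the other way in the upper part of their cluster on chromosome 7. A region 3402 bp upstream of *Cyp2a4*, a testosterone hydroxylase higher in female liver, had 39 reads in *Mettl3* flox/flox and 187 in *Mettl3*-HKO, a log2 ratio of 2.10 [1.62 to 2.66] beside a signal median of −0.37. A second, at −2396 bp, had 23 and 57 reads (1.14). The promoter of *Cyp2a5*, the coumarin hydroxylase printed above, had 52 and 91 reads (0.66 [0.16 to 1.19]) and a called peak in *Mettl3*-HKO only, and its region at +15078 bp had 32 and 102 (1.51 [0.95 to 2.16]). The RefSeq promoters of *Cyp2a4* and *Cyp2a5* are 98% identical, and reads that could not be placed between such copies were dropped by the authors' mapping quality filter. The part of this in the values was not tested. *Cyp2a22* had 76 and 86 reads at its promoter (0.04), but 369 and 177 at −42447 bp (−1.19), the strongest *Cyp2a* region. *Cyp2a12* had 187 and 130 reads at its promoter (−0.66).

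*Cyp2b* genes lie in the same cluster. *Cyp2b10*, the standard target of CAR, had 121 and 71 reads at its promoter (−0.90 [−1.35 to −0.47]), 203 and 106 at −2266 bp (−1.07) and 219 and 79 at −4239 bp (−1.60 [−2.0 to −1.23]). All 3 lay below their signal medians, and a weaker region at +18631 bp, with 22 and 40 reads (0.70 [−0.06 to 1.55]), lay above its own. *Cyp2b13* and *Cyp2b9*, both higher in female than in male liver, had 174 and 183 reads at −6238 bp (−0.06) and 87 and 108 at −4302 bp (0.17), both above their signal medians of −0.49 and −0.35, and neither had a promoter region. Their RefSeq promoters are 99.3% identical. The *Cyp2b19* region at +24851 bp had 168 and 115 reads (−0.68).

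Of the other genes of the cluster, *Cyp2f2*, which marks periportal hepatocytes, had only distal regions, with 321 and 174 reads at +4659 bp (−1.02) and 233 and 74 at +5250 bp (−1.78 [−2.19 to −1.41]). *Cyp2g1*, an olfactory P450, had 4 distal regions, of which the strongest had 318 and 184 reads (−0.92) and the weakest 18 and 34 (0.75). The *Cyp2t4* region had 110 and 98 reads (−0.30). Taken along the chromosome, a row of 5 regions from *Cyp2b10* to *Cyp2a4* lay above the signal medians (345 and 575 reads), as did 8 from *Cyp2g1* to *Cyp2a22* (654 and 845), followed by 5 from *Cyp2a22* to *Cyp2f2* below them (1146 and 594).

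The *Cyp2j* genes, epoxygenases of arachidonic acid, were higher at distal regions. Of their 11 distal regions, 10 lay above 0 (40.2% of all distal regions did) and 7 were at least 2-fold higher (15.6% of all), with a median log2 ratio of 1.77. The authors called a peak in *Mettl3*-HKO only at 7 of the 11 (24.9% of all distal regions) and in both libraries at 4. Those 7 were therefore regions only through the library in which they were higher. Of the P450 regions with a peak in both libraries, 1 of 120 was at least 2-fold higher (2.91% of all such regions). Near *Cyp2j11* there were 43 and 204 reads at +17810 bp (2.08 [1.63 to 2.62]) and 19 and 107 at +23327 bp (2.30 [1.65 to 3.14]), and the authors called peaks at both in *Mettl3*-HKO only. Near *Cyp2j9* there were 47 and 179 reads at −30572 bp (1.77 [1.32 to 2.29]) and 388 and 555 at −31370 bp (0.38 [0.19 to 0.57]), the strongest region of the subfamily. The 2 regions of *Cyp2j8* had 16 and 56 reads (1.61) and 4 and 40 (2.90 [1.72 to 5.13]), the latter with the fewest reads of any P450 region in the *Mettl3* flox/flox library.

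The 3 distal regions of *Cyp2j5* had log2 ratios from −0.06 to 0.23, each with an interval that included 0. The 4 *Cyp2j* promoter regions ranged from −1.0 to 0.15, and 3 of them lay above their signal medians (49.5% of all promoter regions lay below). *Cyp2j6* had 310 and 378 reads (0.15 [−0.07 to 0.37]) beside a signal median of −0.60, so that 96% of the 1000 promoter regions nearest in signal had a lower ratio. *Cyp2j9* had 118 and 127 reads (−0.03, signal median −0.46). *Cyp2j5*, the most abundant *Cyp2j* of the mouse kidney and liver, had 408 and 223 reads at −47 bp (−1.0 [−1.25 to −0.77]) and 340 and 296 at −947 bp (−0.34), on opposite sides of their signal medians of −0.59. Over the cluster, 11 neighbouring regions lay above the signal median, with 1069 and 1858 reads, and no region there was assigned to any other gene. The 14 regions in the 500 kb on either side had a median of −0.41.

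The single-gene subfamilies of family 2 ranged widely. *Cyp2e1*, the pericentral ethanol oxidase, had 444 and 337 reads at its promoter (−0.53 [−0.74 to −0.33]) near the signal median of −0.66, and its 3 distal regions, with 188 and 195, 107 and 121, and 43 and 66 reads, had log2 ratios from −0.08 to 0.47. A further region inside the *Cyp2e1* gene, closest to the start site of another gene and so not counted among the 193, had 801 and 1009 reads (0.20 [0.06 to 0.33]). *Cyp2r1*, the vitamin D 25-hydroxylase, had 990 and 644 reads at −45 bp (−0.76) and 153 and 104 at −803 bp (−0.69). *Cyp2u1*, a fatty acid hydroxylase, had 512 and 348 reads at its promoter (−0.69, signal median −0.65). The region near *Cyp2w1*, a P450 mostly outside the liver, had 776 and 300 reads (−1.50 [−1.70 to −1.31]).

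**Figure D3:**
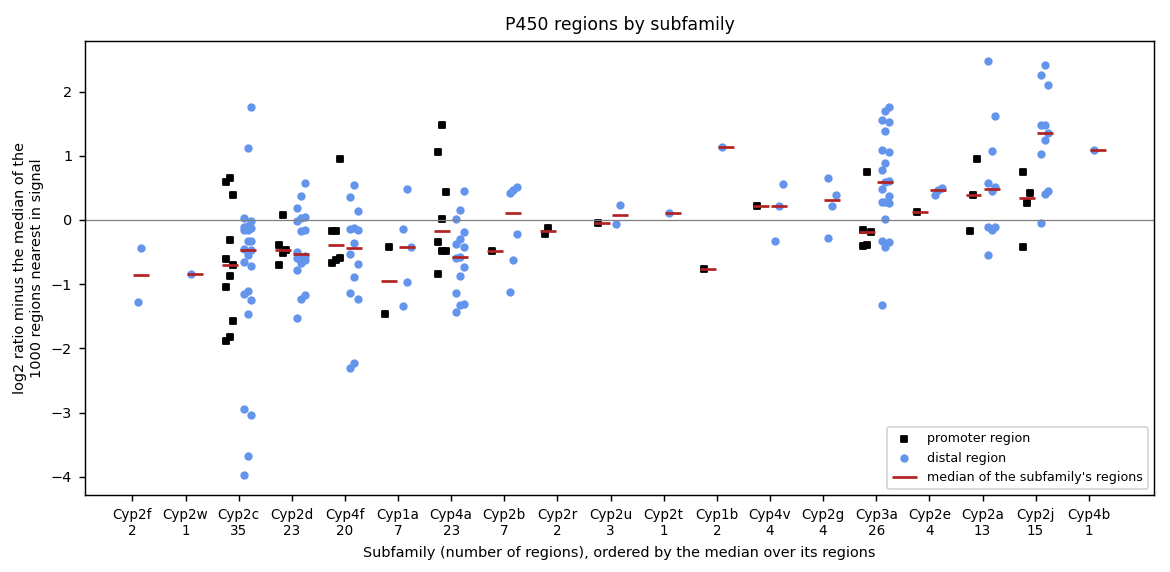
The log2 ratio minus the median of the 1000 regions nearest in signal (y axis) for each P450 region, by subfamily (x axis, with the number of regions). Squares are promoter regions, circles distal regions and red lines the medians: distal *Cyp2j* and *Cyp3a* regions lie mostly above 0, and *Cyp2c*, *Cyp2d*, *Cyp4a* and *Cyp4f* regions mostly below it.

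The *Cyp3a* genes, the main steroid and drug hydroxylases, split by gene. All 7 regions of *Cyp3a11*, the principal PXR target of mouse liver, had log2 ratios above 0 (40.2% of all distal regions did). The authors called a peak in *Mettl3*-HKO only at 5 of them (24.9% of all distal regions) and in both libraries at 2. The region at −3052 bp from the start site in the deposited table had 118 and 302 reads, a log2 ratio of 1.21 [0.91 to 1.54] beside a signal median of −0.54. It is distal by the rule, but it contains all 300 bases of the RefSeq *Cyp3a11* promoter printed above, so it stands at the RefSeq start. At +23622 bp there were 86 and 225 reads (1.24 [0.89 to 1.63]), at +15139 bp 44 and 124 (1.34 [0.85 to 1.89]), at +22515 bp 48 and 129 (1.27) and at +9067 bp 67 and 122 (0.72). The other 2 had 192 and 295 reads at −4743 bp (0.48) and 62 and 90 at −20620 bp (0.39 [−0.08 to 0.89]).

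The female-predominant neighbours of *Cyp3a11* had few reads. *Cyp3a44* had 4 distal regions above 0, the strongest with 112 and 228 reads (0.88 [0.56 to 1.23]) and the others between 17 and 57 reads in either library. *Cyp3a41a* had 36 and 66 reads (0.72) and 42 and 68 (0.55), *Cyp3a41b* had 14 and 32 (1.0) and 24 and 42 (0.65), and *Cyp3a16* had 49 and 38 (−0.49) and 95 and 70 (−0.57). From *Cyp3a41b* to *Cyp3a11*, 15 neighbouring regions lay above their signal medians, with 942 reads in *Mettl3* flox/flox and 1879 in *Mettl3*-HKO. The RefSeq promoters of *Cyp3a41a* and *Cyp3a41b* are 98.3% identical and those of *Cyp3a16* and *Cyp3a44* 94.7%, with the same limit on read placement as for *Cyp2a*.

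*Cyp3a25*, *Cyp3a59* and *Cyp3a13* were lower on the deposited scale and below their signal medians at every promoter region. *Cyp3a25* had 393 and 256 reads at its promoter (−0.75), the strongest region of the subfamily, and 116 and 44 at +10512 bp (−1.51 [−2.07 to −1.02]). *Cyp3a59* had 246 and 140 at its promoter (−0.94), and *Cyp3a13*, which lies apart from the cluster, had 355 and 227 (−0.78) and 246 and 139 (−0.95). The promoter of *Cyp3a57* had 32 and 56 reads (0.65 [0.02 to 1.35]). The 15 regions within the span of the *Cyp3a* cluster that were assigned to genes without a symbol had a median log2 ratio of −0.46. The 23 P450 regions there had one of 0.65. Whether any of the genes without a symbol belongs to the families was not tested.

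The *Cyp4a* genes, omega-hydroxylases of fatty acids under PPARα, were lower at the linked genes *Cyp4a14*, *Cyp4a10*, *Cyp4a31* and *Cyp4a32*. A region 1506 bp upstream of *Cyp4a14* had 193 and 61 reads (−1.78 [−2.24 to −1.38], signal median −0.34), and its promoter had 120 and 71 (−0.88). *Cyp4a10* had 147 and 84 reads at its promoter (−0.94) and 504 and 290 at −4061 bp (−0.93), the strongest region of the subfamily, and *Cyp4a31* had 47 and 27 at its promoter (−0.91) and 356 and 157 at −7923 bp (−1.31). *Cyp4a32* had 275 and 158 reads at its promoter (−0.93). It had 275 and 86 at +5532 bp (−1.80) and 253 and 91 at +6676 bp (−1.60), while its regions at +936 bp (52 and 68 reads, 0.24) and +22198 bp (62 and 68 reads, −0.00) were nearly level. In a row of 11 regions from *Cyp4a14* to *Cyp4a32*, all below the signal median, there were 2609 and 1415 reads.

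The 4 listed PPARα targets had 12 distal regions, all below 0 (59.8% of all distal regions were), of which 6 were at least 2-fold lower (18.8% of all distal regions were) and 4 at least 2-fold below their signal medians (13.5% of all). The 8 regions within the span of the *Cyp4a* cluster that were assigned to genes without a symbol had a median of −1.89. They included regions inside *Cyp4a31* (−2.08 and −1.46) and *Cyp4a12a* (−0.42), and whether the genes without a symbol belong to the families was not tested. The 46 regions in the 500 kb on either side had a median of 0.26. *Cyp4a12a*, a male-predominant arachidonic acid hydroxylase in the same cluster, had 18 and 45 reads at −47 bp (1.14 [0.37 to 2.06]) and 13 and 47 at +518 bp (1.64 [0.81 to 2.73]). These were the 2 P450 promoter regions that were at least 2-fold higher. *Cyp4a12b* had 28 and 33 reads (0.09), and *Cyp4b1*, a P450 mostly of lung, had 66 and 118 at its only region (0.69 [0.26 to 1.16]).

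The *Cyp4f* genes, which hydroxylate leukotrienes and long-chain fatty acids, had log2 ratios below 0 at 16 of 20 regions (64.8% of all regions did) and were at least 2-fold lower at 9 (18.3% of all). *Cyp4f15* had 569 and 264 reads at its promoter (−1.24 [−1.46 to −1.03]), 174 and 61 at +5071 bp (−1.63) and 60 and 14 at +17343 bp (−2.16 [−3.19 to −1.38]). *Cyp4f14*, the leukotriene B4 hydroxylase of mouse liver, had 256 and 121 reads at its promoter (−1.21) and 624 and 341 at −7977 bp (−1.01), the strongest of the subfamily. *Cyp4f17* had 292 and 188 reads at +188 bp (−0.77, signal median −0.59) and 101 and 58 at −460 bp (−0.93, signal median −0.30), and the promoter of *Cyp4f13* had 333 and 214 (−0.77, signal median −0.60). *Cyp4f16* differed in sign, with 44 and 82 reads at its promoter (0.75 [0.22 to 1.33]). *Cyp4v3*, the ocular and hepatic fatty acid hydroxylase, had 882 and 731 reads at its promoter (−0.41 [−0.55 to −0.26], signal median −0.63).

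**Figure D4:**
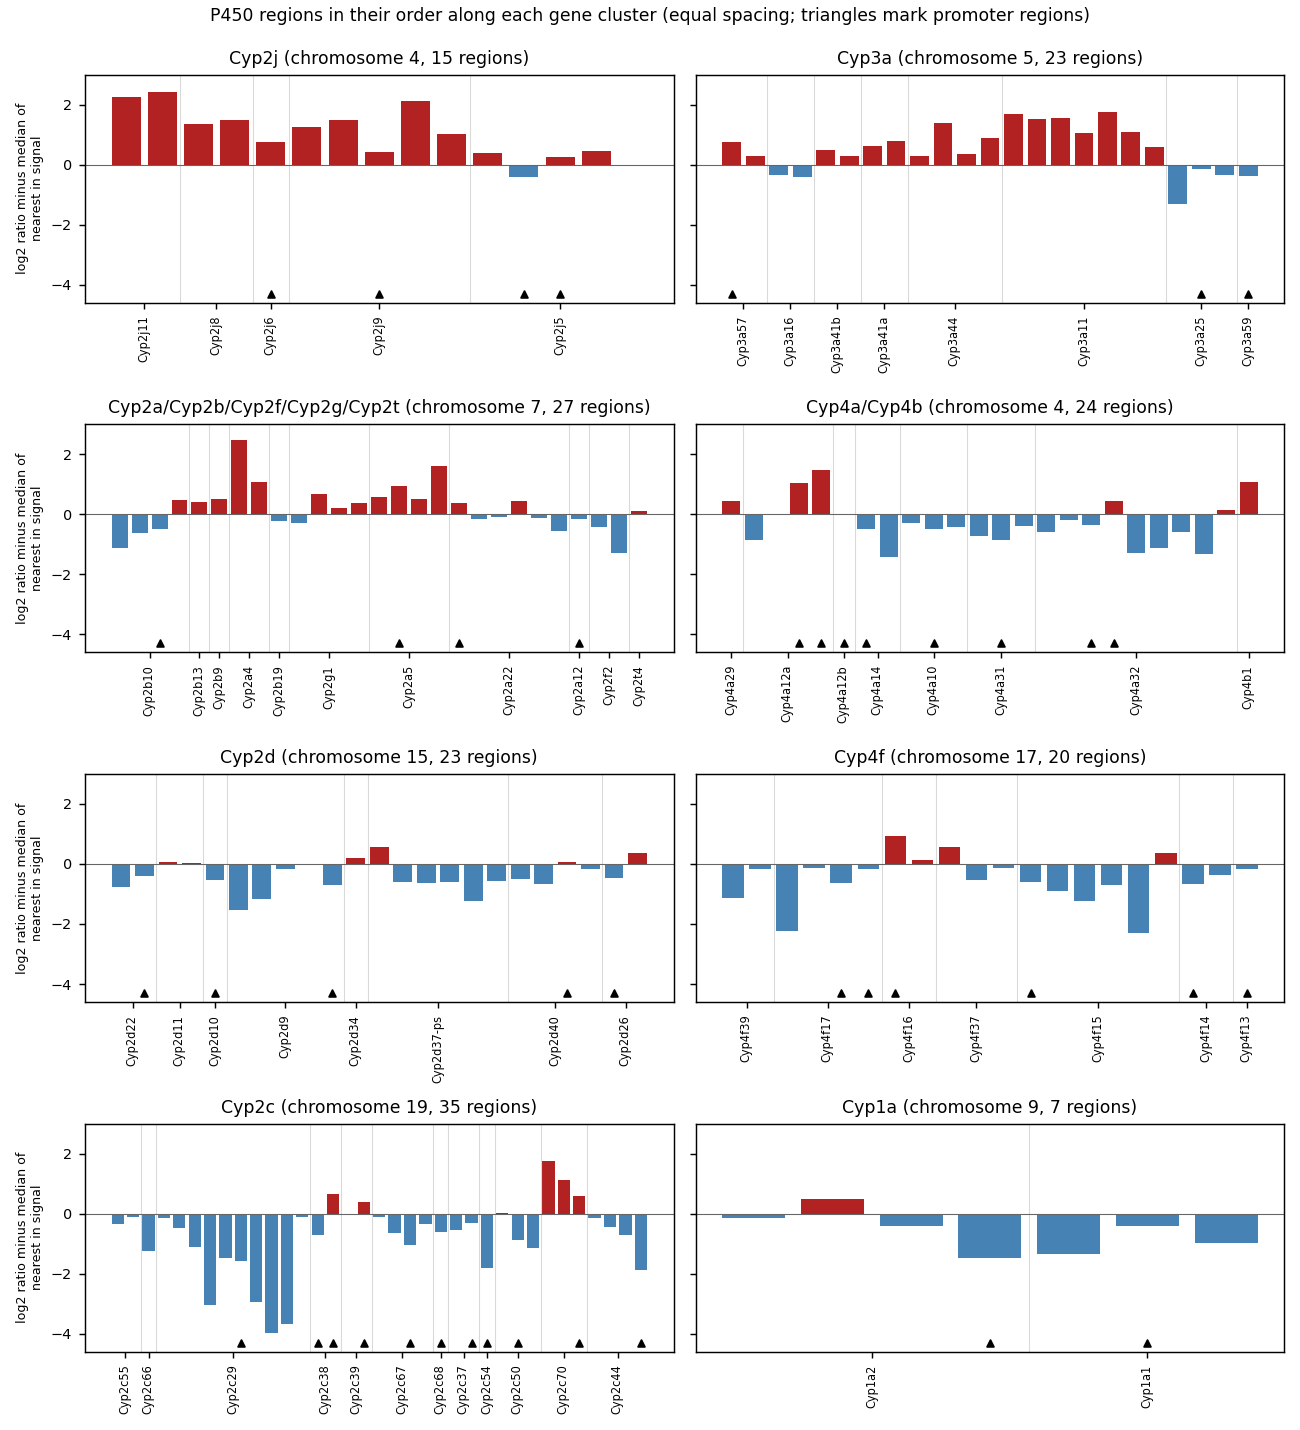
The log2 ratio minus the signal median (bars) for the P450 regions of 8 gene clusters in their order along the chromosome, equally spaced, with triangles under promoter regions and grey lines between genes. Red bars run together over *Cyp2j11* to *Cyp2j9* and *Cyp3a41b* to *Cyp3a11*, and blue bars over *Cyp4a14* to *Cyp4a31*, *Cyp2c55* to *Cyp2c29* and most of *Cyp4f15*.

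Regions of other genes near the clusters were low beside some of them. The 26 regions in the 500 kb on either side of the *Cyp4f* cluster had a median log2 ratio of −0.77, against −0.90 for its P450 regions, and medians of the difference from the signal median of −0.35 and −0.44. Within the span of the *Cyp2d* cluster, 17 regions were assigned to genes without a symbol, and they include a region inside *Cyp2d12*. Whether these genes belong to the families was not tested. The 17 regions had a median of −0.80 (−0.45 from the signal median), against −0.94 (−0.50) for the P450 regions, and the 47 on either side had −0.62. Beside *Cyp1a*, 55 regions had a median of −0.59, against −1.01 for the pair itself. Beside *Cyp2c*, 53 had −0.29, against −0.74, and beside the *Cyp2a* and *Cyp2b* cluster 64 had −0.40, against −0.02.

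Within genes, regions at different distances often differed in size and sometimes in sign. Of the 10 genes with at least 4 distal regions, *Cyp3a11*, *Cyp3a44* and *Cyp2j9* had every region above its signal median and *Cyp2c29* and *Cyp2d9* every region below it. *Cyp4f15*, *Cyp2d37-ps*, *Cyp4a32*, *Cyp2a22* and *Cyp2g1* were mixed. For *Cyp2a22*, 5 distal regions ran from −1.19 (369 and 177 reads) to 0.28 (23 and 31 reads).

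**Figure D5:**
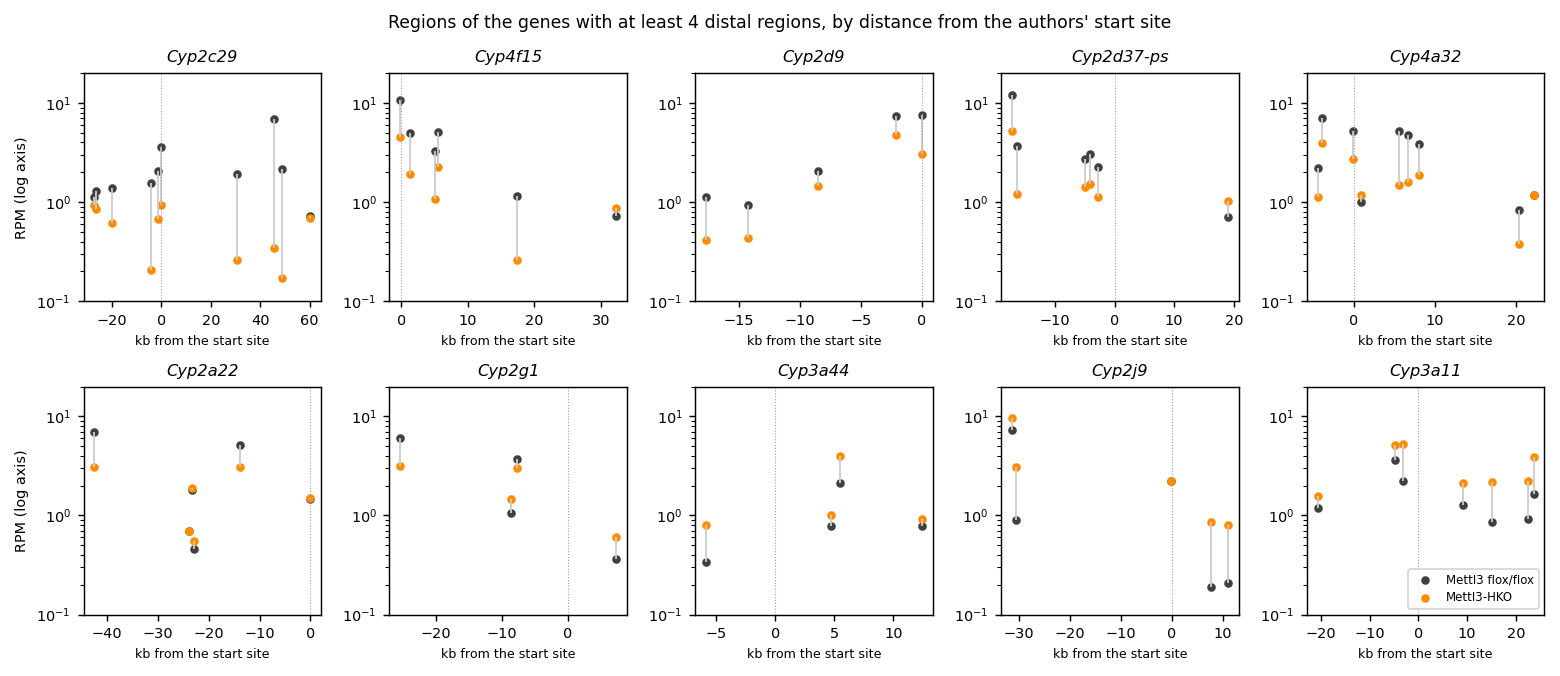
RPM (y axis, log scale) in the *Mettl3* flox/flox (grey) and *Mettl3*-HKO (orange) library against distance from the start site in kb (x axis), for the 10 genes with at least 4 distal regions. At *Cyp2c29* the gap is widest at the region 45421 bp downstream of the start (361 and 19 reads), and at *Cyp3a11* the orange points lie above the grey ones at every distance.

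By regulator class, values were given for lists chosen with knowledge of earlier results. The 5 promoter regions of CAR and PXR targets (*Cyp2b10*, *Cyp2c29*, *Cyp2c37*, *Cyp2c50* and *Cyp2c54*) had a median log2 ratio of −1.07, and 3 were at least 2-fold lower (16.3% of all promoter regions were). The 24 distal regions, of 6 of the 7 listed targets, were divided, with 8 lower by 2-fold or more (18.8% of all distal regions were) and 4 higher (15.6% of all), the latter all at *Cyp3a11*. One of these 4 is the region that holds the RefSeq promoter of *Cyp3a11* (118 and 302 reads, 1.21), which is absent from the promoter count above because the start site in the deposited table lies elsewhere, so the listed promoters were not lower throughout. For pericentral genes the 6 promoter regions had a median of −0.80 and the 28 distal regions one of −0.07. The 17 distal regions of genes higher in female liver had a median of 0.55, from −1.60 to 2.10, with 13 of 17 above their signal medians and 4 below (49.7% of all distal regions lay below). Of these 17, 4 were at least 2-fold higher (15.6% of all distal regions were) and 2 were 2-fold lower or more (18.8% of all). For genes higher in male liver, the 8 distal regions had a median of −0.56 and the 5 promoter regions one of 0.09. Both libraries held Y chromosome reads, in the shares given above, and the mix of sexes in each pool was not tested.

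The genes that regulate P450s were described by the same measures. Of 25 listed regulators, 22 had a promoter region, and the 29 regions had a median log2 ratio of −0.93, against −0.56 for all promoter regions. Of the 29, 12 were at least 2-fold lower (16.3% of all promoter regions were) and 0 higher (4.07% of all), and 20 lay below their signal medians (49.5% of all did) and 9 above. Among the latter were *Dbp* (747 and 799 reads, −0.04), *Onecut1* (574 and 558 reads, −0.18), the stronger *Arnt* region (807 and 764 reads, −0.21) and *Cebpb* (2226 and 1708 reads, −0.52), named after their values were seen. *Nr1i3*, which encodes CAR, had 225 and 81 reads (−1.60), 333 and 107 (−1.76 [−2.10 to −1.46]) and 286 and 105 (−1.57) at its 3 promoter regions. *Ppara* had 1865 and 971 reads (−1.08 [−1.19 to −0.96], signal median −0.63), *Hnf4a*, a master factor of hepatocyte genes, had 418 and 239 (−0.94), and *Nr1i2*, which encodes PXR, had 533 and 414 (−0.50, signal median −0.64). No promoter region was assigned to *Ahr*. Of the 17 partner and haem synthesis genes, 14 had a promoter region, with a median of −0.67, and 7 lay above and 7 below their signal medians. Of these 14, 3 were at least 2-fold lower (*Cpox*, *Cyb5b* and *Fdx1*), against 16.3% of all promoter regions. *Por*, the electron donor of these enzymes, had 1771 and 1282 reads (−0.60, signal median −0.64), and no promoter region was assigned to *Alas1*, the first enzyme of haem synthesis.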

How the data were processed

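ATAC-seq was analysed for 1 *Mettl3* flox/flox and 1 *Mettl3*-HKO liver library, each pooled from 4 mice. The authors trimmed adaptors with skewer, used BWA for alignment to GRCm38, filtered for proper pairs outside the mitochondrial genome with a mapping quality of 13, and ran MACS2 per library on all reads, duplicates included. The counting tool and any Tn5 shift are not given in the sources used here. The authors deposited for each merged region a raw count per library, its RPM (the count plus 1, scaled by the library total), a fold enrichment (the density of reads inside the region relative to the whole genome, not used for comparisons) and a log2 column with their own comparison, which was used only to check the scale: the recomputed log2 ratio differed from it by at most 1.32e-05. Of 74821 entries in the deposited count table, 5272 repeated a region and were left out.

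Regions were assigned to the closest TSS of the deposited table. The regions, gene lists and thresholds were chosen with earlier results of these data known. Log2 ratios used 1 added read. The calculation of the 95% Clopper-Pearson intervals was checked on simulated independent counts, so the check does not show their coverage for real reads. Signal medians used the 1000 regions of the same class nearest in geometric mean RPM. No region was filtered on low counts, and the P450 regions had at least 4 reads in *Mettl3* flox/flox and 9 in *Mettl3*-HKO. Regions named were the strongest of each subfamily, the promoter regions of listed genes, those of genes with at least 4 distal regions, and the 8 highest and 8 lowest relative to the signal median among the 149 with a mean of at least 50 reads; other regions named were chosen after their values were seen. Alternatives covered scaling, added reads, low counts, peak calls and the promoter window. Python 3.11.15, pandas 2.3.3, scipy 1.17.1 and Biopython 1.88 were used. Promoter sequences came from RefSeq (GRCm38.p6). No genome sequence was used, so distal sequences are not shown.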

Additional observations from a re-analysis of the deposited data

How the results depend on the processing

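No paired analysis was possible because each group had 1 library, and for the same reason no library could be left out. Results depended on scaling and on the peak calls. With the libraries scaled to the reads in regions, the median log2 ratio was −0.26 for P450 promoter regions and 0.036 for distal regions, with 22 regions at least 2-fold lower and 36 higher (5.75% and 22.9% of all regions). Centred on the median of all regions, the promoter median was −0.39, with 26 lower and 34 higher (7.89% and 20% of all regions). Centred on the strongest 10% of promoter regions, the medians were −0.14 and 0.16, with 16 lower and 42 higher (4.28% and 25.6% of all regions). The medians of all regions of each class under these scalings were −0.05 and 0.24, −0.19 and 0.10, and 0.07 and 0.36. Those of P450 regions lay below them each time, which is fixed in advance, because such a scaling shifts all regions equally. Because only the zero point moves, differences from the signal median keep their values. Among 74 named regions, 5 to 9 changed sign and 19 to 22 crossed 2-fold under these scalings. Regions with a peak in both libraries gave 28 lower and 1 higher of 120 (15.5% and 2.91% of all such regions), and the strongest region per gene and class gave 28 and 6 of 102 (17.6% and 9.33% over all genes), with fewer regions by construction. With 10 reads added, 6 named regions crossed 2-fold. With a mean of at least 20 counts there were 52 lower and 20 higher (18.2% and 11.9% of all such regions), and 49 and 21 without the pseudogene (18.3% and 13.2% of all regions). A promoter window of 500 bp gave medians of −0.81 and −0.47, and one of 2000 bp gave −0.80 and −0.32, the latter nearer to the −0.26 of all distal regions. The counts of both classes together do not use the window. Counting intervals reached a median of 0.37 (log2) to either side for promoter and 0.45 for distal regions.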

Other observations

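P450s of the sterol, bile acid and retinoid pathways, which belong to other families, also had regions in the data. Of these 16 genes, 11 had a promoter region, with a median log2 ratio of −0.86. *Cyp7a1*, the rate-limiting enzyme of bile acid synthesis, had 170 reads at its promoter in *Mettl3* flox/flox and 318 in *Mettl3*-HKO, a log2 ratio of 0.76 [0.49 to 1.05] beside a signal median of −0.59. *Cyp8b1*, which sets the cholic acid share of bile acids, had 379 and 125 reads (−1.73 [−2.04 to −1.44]), so these 2 bile acid genes differed in direction. *Cyp26a1*, the retinoic acid hydroxylase, had 176 and 42 reads at its promoter (−2.18 [−2.72 to −1.71]), and 282 and 84 reads at −1279 bp (−1.87), whereas *Cyp26b1*, which removes retinoic acid too, had 14 and 48 (1.57 [0.76 to 2.62]). *Cyp51*, the lanosterol demethylase, had 1585 and 795 reads (−1.13), *Cyp27a1*, the sterol 27-hydroxylase, 1249 and 773 (−0.83) and *Cyp7b1*, the oxysterol 7α-hydroxylase, 655 and 435 (−0.73). P450 genes of families 1 to 4 also contained 12 regions assigned to the start site of another gene, of which 8 lay below 0 and 4 above, near the 64.8% of all regions below 0.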
